A study of Mus musculus with 35 samples.

Results

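The genes described here belong to a pair of neighbouring imprinted domains on distal mouse chromosome 7, the *H19*-*Igf2* domain and the *Kcnq1* domain. They were chosen by name, as rows of the expression table whose symbol was *H19*, *Igf2*, *Cdkn1c*, *Phlda2*, *Ascl2* or *Kcnq1ot1*, and 5 of these 6 genes were among the 26127 rows. *Kcnq1ot1* was not analysed here. Total RNA depleted of ribosomal RNA had been sequenced from mouse embryonic stem cells (ESCs) grown in serum and LIF, with or without feeder cells. In these cells Cre recombination, induced by tamoxifen, deletes a floxed *Dnmt1*, the gene of the enzyme that copies DNA methylation onto new strands. The table held 17 control (WT) and 17 *Dnmt1* KO libraries from days 0, 1, 3, 6, 9, 11, 17 and 25, with 2 libraries of each genotype per day and 3 at day 1. It also held 1 library of *Dicer* KO cells, which the methods describe as derived from the floxed *Dnmt1* line by CRISPR/Cas9. The labels name E14 as the background strain, whereas the methods describe a floxed C57BL/6 line. Nothing in the labels says that replicate libraries came from separate cultures, so p-values measure the spread between these libraries, which may be technical. For each gene this spread was pooled over all groups of genotype and day, so it is not that of a single day.

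Imprinted genes are read from the maternal or the paternal chromosome only. In the *H19*-*Igf2* domain, a control region between the genes is methylated on the paternal chromosome, where *Igf2* is read, and is bound by the insulator protein CTCF on the unmethylated maternal chromosome, where *H19* is read. In the *Kcnq1* domain, methylation of the maternal control region keeps the promoter of the long RNA *Kcnq1ot1* silent, and on the paternal chromosome *Kcnq1ot1* is transcribed and represses *Cdkn1c*, *Phlda2* and, in the placenta, *Ascl2*. Total RNA does not tell the parental copies apart, so every level below is a sum over both.

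All 5 genes lie on the minus strand of chromosome 7 in build NCBIM37. *H19* spans 149761434 to 149764048, and the start of *Igf2* (149836673 to 149852721) is 88.7 kb further toward the telomere. *Ascl2* (150152727 to 150155169), *Cdkn1c* (150644255 to 150646955) and *Phlda2* (150687450 to 150688446) start 391 kb, 883 kb and 924 kb from the start of *H19*. *Igf2as* overlaps *Igf2* on the opposite strand, and no source used here states whether counting used strand, so reads of the overlap may be shared between them. *Igf2as* was at most 0.239 RPKM in any *Dnmt1* KO library and 0.189 RPKM in any WT library (RPKM, the reads of a gene scaled to 1 kb of its exons and to the mega-reads sequenced).

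The *H19* transcript carries the hairpin of the microRNA miR-675 in its first exon, and the mature sequences from RefSeq are shown because they are the small RNA products of the gene that changed most. They were found by exact match on the minus strand of NCBIM37, at chr7:149763017-149763038 for the 5p arm and chr7:149762983-149763004 for the 3p arm. Capitals mark the seed, bases 2 to 8. Small RNAs were not measured in these libraries.
mmu-miR-675-5p: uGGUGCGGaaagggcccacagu
mmu-miR-675-3p: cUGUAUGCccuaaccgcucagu

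Promoters are shown because methylation acts on CpG sites, which differ widely in number between these genes. RefSeq promoter entries of build GRCm38.p6, from 250 bases before to 50 bases after a start, existed for 4 of the 6 named genes, and each was placed on the minus strand of NCBIM37 by exact match. Capitals mark CpG. The median over 32851 promoters of this length was 7 CpG. *Igf2* has 4 entries with between 2 and 24 CpG, of which the poorest and the richest are shown. The *Phlda2* promoter had 26 CpG, that of *Ascl2* 23 and that of *Kcnq1ot1*, which lies inside *Kcnq1* on the opposite strand, 9. The hexamer TGCCGC, bound by the imprint keeper ZFP57 when methylated, was searched on both strands. It was present in 11.6% of all promoters and, among the 7 entries of these genes, in 1 entry of *Igf2* that is not shown.
Igf2, chr7:149852672-149852971: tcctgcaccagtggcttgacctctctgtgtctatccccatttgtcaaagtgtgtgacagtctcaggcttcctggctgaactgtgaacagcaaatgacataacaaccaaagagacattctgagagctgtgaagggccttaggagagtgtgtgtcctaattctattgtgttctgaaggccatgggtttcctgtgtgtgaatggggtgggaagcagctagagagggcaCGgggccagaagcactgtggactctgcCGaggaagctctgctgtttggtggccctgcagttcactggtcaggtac
Igf2, chr7:149844660-149844959: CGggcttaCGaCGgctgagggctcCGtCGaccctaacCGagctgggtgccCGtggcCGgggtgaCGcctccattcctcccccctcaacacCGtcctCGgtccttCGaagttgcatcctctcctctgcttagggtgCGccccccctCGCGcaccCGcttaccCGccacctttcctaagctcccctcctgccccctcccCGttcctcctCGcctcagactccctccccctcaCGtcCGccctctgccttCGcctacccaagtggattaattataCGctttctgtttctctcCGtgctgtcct
Phlda2, chr7:150688380-150688679: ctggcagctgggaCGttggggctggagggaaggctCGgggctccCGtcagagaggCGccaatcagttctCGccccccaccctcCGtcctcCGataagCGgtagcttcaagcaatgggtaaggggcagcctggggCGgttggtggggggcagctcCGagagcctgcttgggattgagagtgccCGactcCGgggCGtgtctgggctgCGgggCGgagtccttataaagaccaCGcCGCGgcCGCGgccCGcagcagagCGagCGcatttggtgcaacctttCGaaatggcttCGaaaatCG
Ascl2, chr7:150155120-150155419: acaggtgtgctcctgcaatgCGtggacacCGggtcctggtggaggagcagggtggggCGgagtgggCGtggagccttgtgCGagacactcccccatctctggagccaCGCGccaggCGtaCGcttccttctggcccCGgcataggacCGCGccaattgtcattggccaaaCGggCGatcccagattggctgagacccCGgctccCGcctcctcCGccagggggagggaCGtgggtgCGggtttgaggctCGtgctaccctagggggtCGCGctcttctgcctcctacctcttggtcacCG
Kcnq1ot1, chr7:150482403-150482702: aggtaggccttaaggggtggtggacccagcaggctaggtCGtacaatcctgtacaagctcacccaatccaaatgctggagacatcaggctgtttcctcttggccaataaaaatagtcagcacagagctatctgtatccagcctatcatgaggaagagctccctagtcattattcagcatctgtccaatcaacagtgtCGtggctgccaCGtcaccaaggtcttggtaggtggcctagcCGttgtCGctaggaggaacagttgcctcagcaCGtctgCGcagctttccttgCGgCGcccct

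Libraries had 24.3 to 72.1 mega-reads, of which 5.2 to 17.98 fell in exons of genes. The share of reads in exons was 20.6% to 22.4% in 20 libraries (days 0, 3, 6 and 9 and the first 2 pairs of day 1) and 44.7% to 49.8% in 15 (the third pair of day 1, days 11, 17 and 25, and *Dicer* KO). RPKM levels of days from different sets are therefore not on one scale, whereas KO and WT libraries of 1 day share a set except at day 1, where the third pair had its own term in the fit. ESC markers (8 genes such as *Pou5f1* and *Nanog*) summed to 268 to 381 RPKM in the first set and 641 to 952 RPKM in the second, with none at 0 in any WT or KO library. At day 25 they differed with genotype, at 937 to 952 RPKM in KO against 641 to 656 RPKM in WT. Of the 8, 6 were called higher in KO and none lower, against 39.4% and 25.9% of all tested genes. The *Dnmt1* KO libraries of day 11 stood apart from each other, with r = 0.969 across genes against 0.989 to 0.995 in the other groups. The spread of replicate reads relative to counting error (chi-square per degree of freedom) was 1.31 to 2.05 in the first set. In the second set it was 3.02 to 13.6, and 40.6 in KO at day 11. With a pooled spread, the SE of a day does not carry these differences.

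*Dnmt1* was 18.3 and 18.4 RPKM in WT and 18.7 and 18.5 RPKM in KO libraries at day 0. From day 1 it was 2.58 to 8.13 RPKM in the KO libraries and 14.1 to 34.8 RPKM in the WT libraries, apart from day 6. At day 6 the libraries labelled KO had 20.2 and 20.4 RPKM and those labelled WT 3.22 and 3.4 RPKM, so *Dnmt1* RNA went against the labels there. Day 6 values below are given as labelled, for libraries labelled KO and WT, and day 6 entered no mean over days.

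After *Dnmt1* deletion, *H19* rose to levels far above WT and the other members split. *Igf2*, *Cdkn1c* and *Phlda2* were higher in KO at day 3 and lower at days 17 and 25, and *Ascl2* was higher at days 11 and 17. Genes were tested with limma across 11615 genes (above 1 RPKM in at least 2 libraries) on log2(RPKM + 0.1), a scale that understates the change of low genes, with Benjamini-Hochberg adjusted p below 0.05 for a call. *H19*, *Cdkn1c* and *Phlda2* passed this filter in all 34 WT and KO libraries and *Igf2* in 13 of them. *Ascl2* passed through 4 KO libraries of days 11 and 17 alone and no WT library. Its calls at these days and over means that include them, and the counts of members there, are therefore no support for its direction. In bulk RNA, a gene expressed in more cells and one with more RNA per cell cannot be told apart.

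At day 0 no member and no other gene was called by limma (242 genes had an unadjusted p below 0.05), and at day 1 no member was called, where 0.121% of tested genes were higher and 0.0258% lower (0.0775% and 0.0344% after each library was centred on the median of its tested genes). At day 3, 4 members were higher and none lower, against 7.4% of tested genes higher and 3.81% lower (centred, 5.72% and 5.73%). In the libraries labelled day 6, none was higher and 2 were lower, against 8.61% and 18.5% (centred, 13.4% and 13.3%). At day 9, 2 were higher and none lower, against 16.7% and 10.5% (centred, 13.4% and 13.6%). At day 11, 2 were higher and 1 lower, against 22.7% and 12.3% (centred, 14.8% and 20.4%). At day 17 all 5 were called, 2 higher and 3 lower, against 28.9% and 11.4% (centred, 17.5% and 25.6%). At day 25, 1 was higher and 3 lower, against 39.4% and 25.9% of tested genes, and the median of all tested genes was shifted by 0.13 on the log2 scale. With so many genes called at day 25, a call alone sets no member apart, and the sizes given below carry the description.

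**Figure D1:**
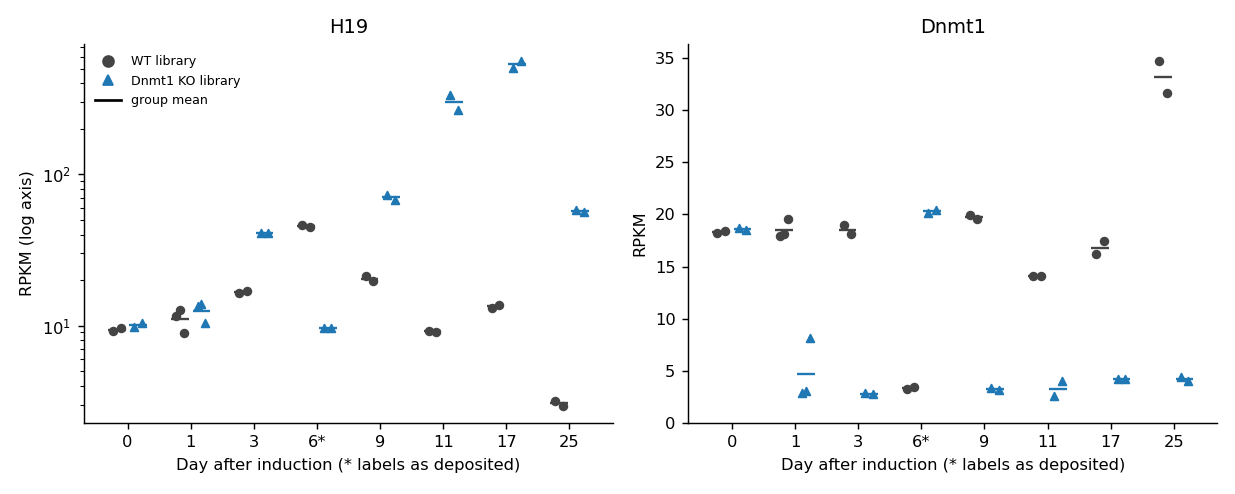
*H19* (left, log axis) and *Dnmt1* (right, linear axis) in RPKM by day, with a circle for each WT and a triangle for each *Dnmt1* KO library and a line at each group mean. *H19* in KO libraries reached 507 and 561 RPKM at day 17 while WT libraries were at 13.1 and 13.7 RPKM, and at day 6, as labelled, both genes run opposite to days 3 and 9.

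*H19*, a long non-coding RNA that is abundant in the fetus and placenta and lost from most tissues after birth, was the member with the largest difference at every day from day 3 on. At day 0 it was 9.14 and 9.68 RPKM in WT and 9.78 and 10.4 RPKM in KO libraries, and at day 1 it was 11.5, 12.7 and 8.93 RPKM in WT and 13.5, 13.8 and 10.4 RPKM in KO libraries. KO libraries were above WT at day 0 by 1.07-fold, and the groups overlapped at day 1. At day 3 it was 16.5 and 17.004 RPKM in WT and 40.7 and 41.0 RPKM in KO, a log2 difference (KO minus WT) of 1.28 (SE 0.081; limma adjusted p = 4.835e-10). At day 9 it was 21.2 and 19.6 RPKM in WT and 73.4 and 68.0 RPKM in KO (log2 difference 1.79; adjusted p = 2.00e-13). KO libraries were above WT at both days without overlap.

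At day 11 *H19* was 9.25 and 9.02 RPKM in WT and 335 and 266 RPKM in KO, a 32.9-fold ratio of means. At day 17 it was 13.1 and 13.7 RPKM in WT and 507 and 561 RPKM in KO, a 39.8-fold ratio. At day 25 it was 3.14 and 2.95 RPKM in WT and 58.3 and 56.2 RPKM in KO, an 18.8-fold ratio. The lowest KO library exceeded the highest WT library at each of these days. The log2 differences were 5.01, 5.30 and 4.19 (SE 0.081 each; limma adjusted p = 2.44e-22, 7.08e-23 and 6.48e-21). *H19* ranked between 34 and 39 of the 26127 rows in the KO libraries of day 17, between 71 and 73 at day 11, and between 523 and 542 at day 25, against ranks of 6808 to 7022 in WT at day 25. The KO effect grew from day 9 to day 25 by 2.40 (adjusted p = 4.34e-12) and was smaller at day 25 than at day 17, by a log2 difference of -1.12 (adjusted p = 1.54e-07). In the libraries of day 6, *H19* was 46.1 and 44.8 RPKM in those labelled WT and 9.64 and 9.59 RPKM in those labelled KO (log2 difference -2.23), opposite to days 3 and 9, as *Dnmt1* was.

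RPKM of different days was set side by side only within a set of libraries. Division by the share of reads in exons did not put the sets on one scale, since at day 1, the one day in both sets, *H19* on that scale was 18.4 in the third WT library and 21.7 in the third KO library, against up to 58.4 and 63.3 reads per kilobase and mega-read in exons in the other day 1 libraries. In the first set, *H19* in WT was 9.41 ± 0.378 RPKM (SD, n = 2) at day 0, 16.7 ± 0.370 RPKM at day 3 and 20.4 ± 1.11 RPKM at day 9. In KO it was 10.1 ± 0.434, 40.9 ± 0.229 and 70.7 ± 3.84 RPKM at these days. Levels of day 9 lay above those of day 3, and those of day 3 above those of day 0, in both genotypes and without overlap. In the second set, WT *H19* was lower at day 25 than at days 11 and 17 and lower than the 8.93 RPKM of the third WT library of day 1. KO *H19* was 300.2 ± 48.98 RPKM at day 11, 534 ± 38.0 RPKM at day 17 and 57.3 ± 1.48 RPKM at day 25, against 10.4 RPKM in the third KO library of day 1. The days were not tested against each other.

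*Igf2*, a growth factor of the fetus and placenta that signals through the IGF1 and insulin receptors, moved in both directions. At day 3 it was 1.12 and 1.16 RPKM in WT and 2.05 and 1.97 RPKM in KO, and at day 9 it was 1.14 and 1.16 RPKM in WT and 1.70 and 1.44 RPKM in KO. KO libraries were above WT at both days, with log2 differences of 0.77 (SE 0.14; limma adjusted p = 0.000766) and 0.41 (adjusted p = 0.0312). The day 9 call was lost without either WT library or without replicate 1 of the KO libraries of that day (adjusted p = 0.115, 0.114 and 0.264). At day 11 the groups overlapped, at 0.694 and 0.851 RPKM in WT and 0.527 and 0.721 RPKM in KO (adjusted p = 0.1275). After median centring the day 11 difference was -0.39 (adjusted p = 0.0207), and without replicate 2 of the KO libraries it was -0.47 (adjusted p = 0.0229).

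At day 17 *Igf2* was 1.95 and 2.16 RPKM in WT and 0.930 and 0.941 RPKM in KO, 2.20-fold lower in KO (log2 difference -1.06; limma adjusted p = 2.09e-06). At day 25 it was 1.61 and 1.62 RPKM in WT and 0.226 and 0.137 RPKM in KO, 8.90-fold lower (log2 difference -2.63; adjusted p = 1.07e-12). No KO library reached the lowest WT library at these days. The day 25 KO values rest on 37 and 23 reads recovered from the RPKM, against 266 and 241 reads in WT. The KO effect at day 25 was lower than at day 9 by a log2 difference of -3.04 (adjusted p = 3.64e-10) and lower than at day 17 by -1.57 (adjusted p = 1.85e-06). At day 0 *Igf2* was 0.568 and 0.598 RPKM in KO and 0.597 and 0.649 RPKM in WT, with no call. At day 1 it was 0.913 to 1.11 RPKM in KO and 0.701 to 0.824 RPKM in WT. KO libraries were above WT at day 1 without overlap, by 1.33-fold, with no call (log2 difference 0.37; adjusted p = 0.2136). The libraries labelled day 6 gave -0.58 (adjusted p = 0.00318).

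The ratio of *H19* to *Igf2* RPKM within a library does not depend on the depth. At day 1 it was 12.75 in the third WT library and 15.4 in both others, and 11.38 in the third KO library against 12.1 and 13.9. It was 14.9 and 15.3 in WT and 17.21 and 17.4 in KO at day 0. At day 9 it was 18.5 and 16.9 in WT and 43.2 and 47.3 in KO. At day 17 it was 6.73 and 6.35 in WT and 546 and 596 in KO, and at day 25 it was 1.95 and 1.83 in WT and 258 and 411 in KO. Within the second set, the ratio at days 17 and 25 was thus below that of the third day 1 library in WT and above it in KO.

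**Figure D2:**
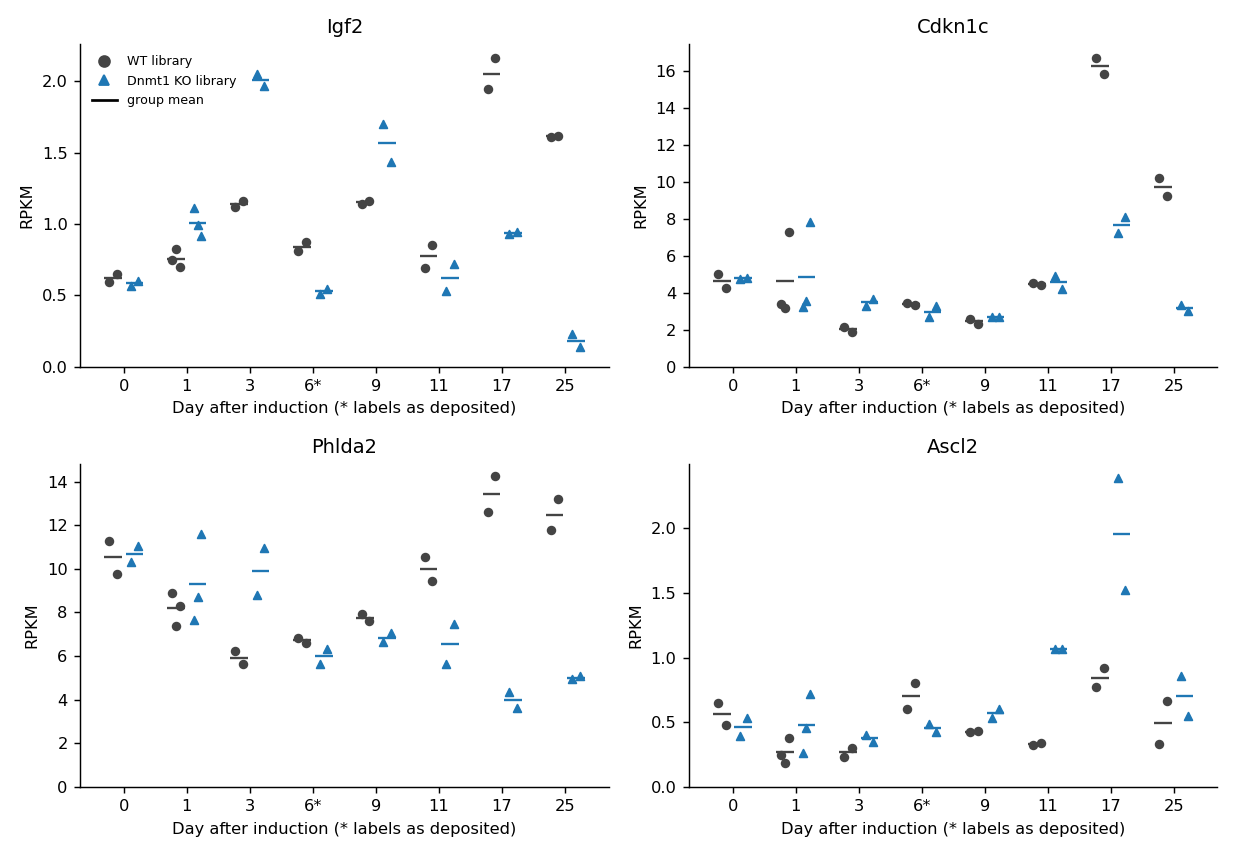
*Igf2*, *Cdkn1c*, *Phlda2* and *Ascl2* in RPKM (linear axes from 0) by day, with a circle for each WT and a triangle for each *Dnmt1* KO library and a line at each group mean. For *Igf2*, *Cdkn1c* and *Phlda2* the KO libraries lie above WT at day 3 and below WT at days 17 and 25, and for *Ascl2* they lie above WT at days 11 and 17.

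*Cdkn1c* encodes p57, an inhibitor of cyclin-dependent kinases that restrains growth. At day 0 it was 4.98 and 4.25 RPKM in WT and 4.76 and 4.77 RPKM in KO. At day 3 it was 2.12 and 1.89 RPKM in WT and 3.30 and 3.66 RPKM in KO, higher in KO without overlap (log2 difference 0.77, SE 0.10; limma adjusted p = 2.53e-05). When the third pair of day 1 was kept without its term in the fit, the adjusted p was 0.633 with the same difference. In that pair *Cdkn1c* was 7.25 RPKM in WT and 7.82 RPKM in KO against 3.15 to 3.55 RPKM in the other day 1 libraries. The call was kept with that pair left out and in a fit of the day 3 libraries alone. At days 9 and 11 the differences were 0.13 and 0.03 (adjusted p = 0.394 and 0.850). At day 17 it was 16.7 and 15.8 RPKM in WT and 7.20 and 8.08 RPKM in KO, 2.13-fold lower in KO (log2 difference -1.08; adjusted p = 1.74e-08). At day 25 it was 10.2 and 9.22 RPKM in WT and 3.34 and 3.02 RPKM in KO, 3.05-fold lower (log2 difference -1.58; adjusted p = 3.24e-11). The level was thus lower in KO beside a WT level that was higher at days 17 and 25 than at day 11, where it was 4.49 and 4.39 RPKM in libraries of the same set. The KO effect of day 25 was below that of day 9 by -1.70 (adjusted p = 1.52e-08) and below that of day 17 by -0.50 (adjusted p = 0.00662), and the last call was lost after median centring (adjusted p = 0.0902) and without the day 1 term (adjusted p = 0.605).

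*Phlda2*, a PH-domain protein that restrains growth of the placenta, followed a similar course. It was 11.3 and 9.76 RPKM in WT and 10.3 and 11.05 RPKM in KO at day 0. At day 3 it was 6.22 and 5.62 RPKM in WT and 8.80 and 10.98 RPKM in KO (log2 difference 0.72, SE 0.14; limma adjusted p = 0.001275, and 0.0872 without the day 1 term). At day 9 it was 7.92 and 7.61 RPKM in WT and 6.62 and 7.07 RPKM in KO, with no call. KO libraries were the higher ones at day 3 and the lower ones at day 9. At day 11 it was 10.5 and 9.44 RPKM in WT and 5.63 and 7.46 RPKM in KO (log2 difference -0.61; adjusted p = 0.00165). The day 11 call was lost without the day 1 term (adjusted p = 0.0615) and in a fit of the day 11 libraries alone (adjusted p = 0.159). At day 17 it was 12.6 and 14.3 RPKM in WT and 4.35 and 3.63 RPKM in KO, 3.37-fold lower in KO (log2 difference -1.73; adjusted p = 1.22e-09). At day 25 it was 11.8 and 13.2 RPKM in WT and 4.93 and 5.09 RPKM in KO, 2.50-fold lower (log2 difference -1.30; adjusted p = 7.89e-08). From day 11 on, every KO library was below every WT library of its day. The KO effect of day 25 was below that of day 9 by -1.12 (adjusted p = 0.0001135), and its difference from that of day 17, 0.43, missed the threshold (adjusted p = 0.0692).

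*Ascl2*, a basic helix-loop-helix factor needed for the trophoblast of the placenta, was at or below 0.916 RPKM in every WT library. At day 11 it was 0.324 and 0.338 RPKM in WT and 1.07 and 1.06 RPKM in KO, and at day 17 it was 0.775 and 0.916 RPKM in WT and 2.39 and 1.52 RPKM in KO. KO libraries were 3.21-fold and 2.31-fold above WT, with log2 differences of 1.43 (SE 0.26; limma adjusted p = 0.0001668) and 1.09 (adjusted p = 0.001625). The gene was tested only because these KO libraries passed the filter, so the p-values are no support for its direction. These levels rest on 52 to 119 reads in KO and 17 to 44 reads in WT libraries. Without replicate 1 of the KO libraries the day 17 difference was 0.78 (adjusted p = 0.0521). At day 25 the groups overlapped, at 0.330 and 0.663 RPKM in WT and 0.855 and 0.547 RPKM in KO (log2 difference 0.45; adjusted p = 0.1236), and the difference was 0.87 (adjusted p = 0.0118) without replicate 2 of WT and 0.74 (adjusted p = 0.0436) without replicate 2 of KO. Its KO effect at day 25 was not called different from that of day 9 or day 17 (log2 differences 0.12 and -0.64; adjusted p = 0.811 and 0.1423).

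**Figure D3:**
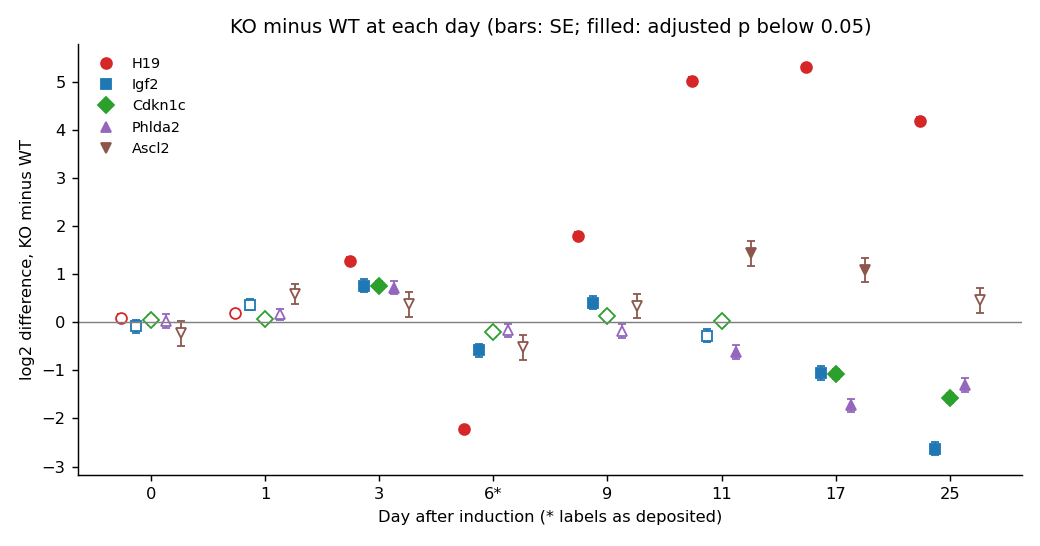
The log2 difference of KO minus WT with its SE for the 5 members at each day, filled where the limma adjusted p was below 0.05. *H19* is at 5.01, 5.30 and 4.19 at days 11, 17 and 25, *Igf2*, *Cdkn1c* and *Phlda2* lie below 0 at days 17 and 25, and *Ascl2* lies above 0 at days 11 and 17.

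Over the mean of days 3, 9, 11, 17 and 25, *H19* (3.52) and *Ascl2* (0.74) were higher in KO and *Igf2* (-0.56), *Cdkn1c* (-0.35) and *Phlda2* (-0.62) lower, against 37.4% of tested genes higher and 20.4% lower (centred, 26.2% and 31.6%). That mean hides the turn between early and late days. Days 3 and 9 and days 11, 17 and 25 fall in different sets of libraries, so time and set cannot be told apart. Over days 3 and 9 alone *Igf2*, *Cdkn1c* and *Phlda2* were higher in KO by 0.59, 0.45 and 0.27 (limma adjusted p = 8.03e-05, 6.02e-05 and 0.0392), and with *H19* 4 members were higher and none lower, against 18.3% of tested genes higher and 12.4% lower. Over days 11, 17 and 25 the same 3 genes were lower, with log2 differences of -1.32, -0.88 and -1.21 (adjusted p = 4.29e-12, 3.09e-11 and 2.19e-11), against 38.8% of tested genes higher and 18.2% lower. For the change of the KO effect from day 9 to day 25, 1 member was higher and 3 lower, against 26.7% and 21.5% of tested genes. From day 17 to day 25, 3 members were called and all 3 were lower, against 54.4% of tested genes called and 29.2% lower. Of the called genes, 46.3% were higher, and 62.4% after centring.

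Across the 8 days, the differences of *Igf2* and *Cdkn1c* had a Pearson r of 0.95, those of *Cdkn1c* and *Phlda2* 0.904 and those of *H19* and *Ascl2* 0.868, while those of *H19* and *Phlda2* had -0.711. These 8 points share the division of days into sets of libraries and include day 6 as labelled, so the values are a description. Among 2343 other genes with a called difference of at least 1 on some day, the course most like that of *H19* was that of *Ldhc*, the lactate dehydrogenase of the testis (r = 0.993, log2 difference 2.63 at day 17), followed by G730013B05Rik (0.989). Most like *Igf2* were *Tsix* (0.971), the antisense RNA of *Xist*, and *Aebp1* (0.969). *Insm1*, a zinc finger factor of neuroendocrine cells (0.966), and Nphs1as (0.950) were most like *Cdkn1c*. BC024659 (0.956) and again Nphs1as (0.944) were most like *Phlda2*, and *Ppfia4* (0.955) and Ntf5 (0.948) most like *Ascl2*.

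Markers of other cell types moved with genotype on some days. At day 25, where *Igf2*, *Cdkn1c* and *Phlda2* were lower in KO, ESC markers were higher in KO, as given above. *Nanog*, a core factor of pluripotency, was 149.5 ± 7.36 RPKM in KO against 31.7 ± 1.45 RPKM in WT (SD, n = 2 each). At day 17, where these members were also lower, ESC sums were 739 to 781 RPKM in KO against 798 to 930 RPKM in WT. Of the 8 ESC markers 4 were called higher and 2 lower, against 28.9% and 11.4% of all tested genes. There *Nanog* was 163.7 against 68.7 RPKM, *Pou5f1* 166.9 against 236.5 RPKM and *Tdgf1* 263 against 410.8 RPKM (group means). The part of these ESC marker shifts in the member differences of days 17 and 25 was not tested. The 10 fibroblast markers, which feeder cells would carry, summed to 41.95 to 43.17 RPKM in KO against 28.86 to 30.38 RPKM in WT at day 3, and to 59.83 to 66.31 against 38.19 to 38.87 RPKM at day 9. The largest change among them was in *S100a4*. Its group means were 13.6 RPKM in KO against 7.13 RPKM in WT at day 3, then 32.44 against 11.51 RPKM. *Fn1* had 14.86 against 14.25 RPKM at day 3 and stayed under WT at day 9, with 13.04 against 16.81 RPKM. Of the 7 tested markers, 4 were called higher and none lower on each day, against 7.4% and 16.7% of all tested genes higher. In the 20 libraries with the lower share of reads in exons *Col1a1*, *Col1a2* and *Col3a1*, the fibrillar collagen genes of the list, were 0.418 to 3.71 RPKM and none of the 3 was at 0. *H19* and *Igf2* were higher in KO at days 3 and 9, and the part of fibroblasts in that difference was not tested. In the libraries of days 11, 17 and 25 and the third pair of day 1, *Col1a1* was at most 0.112 RPKM, *Col1a2* 0.0393 RPKM, *Col3a1* 0.0447 RPKM and *Postn* 0.0391 RPKM, and their fibroblast sum of 5.91 to 28.3 RPKM was mostly *Fn1*. Where *H19* was 32.9-fold and 39.8-fold above WT, at days 11 and 17, the sum was 7.84 to 21.8 RPKM and 5.91 to 7.80 RPKM in KO against 16.4 to 24.2 RPKM and 9.44 to 13.4 RPKM in WT. At day 25 it was 7.03 to 8.80 RPKM in KO against 25.4 to 28.3 RPKM in WT. Of the 7 tested markers 1 was higher and 3 lower in KO, against 39.4% and 25.9% of all tested genes. The 3 collagen genes and *Lox* were at most 0.103 RPKM in the group means of day 25, about the pseudocount of 0.1. For these genes the count is thus of limited meaning.

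The 9 trophoblast markers in the table summed to 110 to 140 RPKM in KO against 34.4 to 35.98 RPKM in WT at day 11, and to 291 to 300 RPKM against 59.4 to 70.1 RPKM at day 17, the days at which *Ascl2* was called. At day 3 the sums were 45.6 to 49.7 against 24.4 to 27.7 RPKM, at day 9 they were 17.8 to 18.02 against 10.5 to 11.96 RPKM, and at day 25 they were 44.8 to 47.3 against 43.5 to 43.98 RPKM. Most of each sum came from the keratins *Krt8* and *Krt18*, which many epithelial cells also express. Of the other markers, *Elf5* was at most 0.11 RPKM, *Gata3* 0.236 RPKM, *Esx1* 0.698 RPKM, *Cdx2* 0.994 RPKM, *Eomes* 1.17 RPKM, *Hand1* 1.57 RPKM and *Krt7* 2.53 RPKM in any WT or KO library, and at most 3 of the 9 genes were at 0 in a library. At day 17 all 5 tested markers were called higher in KO, against 28.9% of all tested genes. Among them *Hand1*, a factor of trophoblast giant cells, was 1.46 RPKM in KO against 0.244 RPKM in WT, *Krt7* 2.495 against 0.334 RPKM and *Eomes*, a factor of trophoblast stem cells, 0.599 against 0.360 RPKM (group means). At day 11, 4 of the 5 were higher in KO, against 22.7% of all tested genes, and at day 25 1 was, against 39.4%. *Hand1* passed the filter only through KO libraries of day 17, and *Krt7* only through KO libraries of days 11 and 17. Their calls, and the marker counts of these days, are therefore no support for a direction. The part of the trophoblast markers in the *Ascl2* and *H19* results was not tested. The 10 endoderm markers summed to 3.79 to 28.2 RPKM over all WT and KO libraries and were higher in KO at day 9, at 20.9 to 21.5 against 11.4 to 13.1 RPKM. At day 25 they were lower in KO, at 9.64 to 10.5 against 14.6 to 15.9 RPKM. Of the 5 tested endoderm markers 4 were called lower and none higher, against 25.9% and 39.4% of all tested genes. Their part in the lower *Igf2*, *Cdkn1c* and *Phlda2* of day 25 was not tested.

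**Figure D4:**
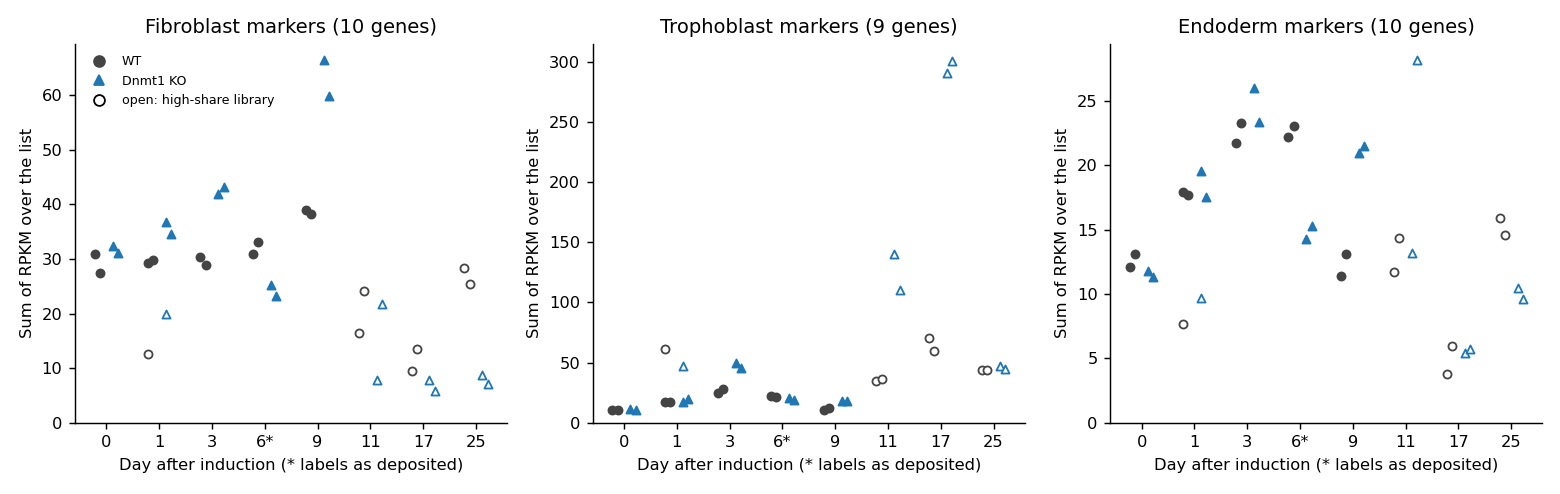
Sums of RPKM over the fibroblast, trophoblast and endoderm marker lists by day, with circles for WT and triangles for *Dnmt1* KO libraries, open for libraries with the higher share of reads in exons. Fibroblast sums are higher in KO at days 3 and 9, and trophoblast sums reach 291 to 300 RPKM in KO at day 17.

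The genes between and beside the members, in the same stretch of chromosome, were called in both directions. From *Ctsd* to *Osbpl5* the table had 32 rows, of which 13 were tested, and the other 19 were too low. Beside the *H19*-*Igf2* domain, 2 of 9 listed genes in the table were tested. Both were higher in KO at day 25, against 39.4% of all tested genes. These were *Mrpl23*, a mitochondrial ribosomal protein gene next to *H19* (log2 difference 0.90; limma adjusted p = 2.60e-06), and *Ctsd*, a lysosomal protease (0.29; adjusted p = 0.0125, and 0.0751 without replicate 1 of KO). At day 17 *Ctsd* was higher by 0.92 and *Mrpl23* by 0.33. The *Mrpl23* call of day 17 was lost after median centring, with 0.15 (adjusted p = 0.403), without the term for the third pair of day 1 (adjusted p = 0.681), with no filter on low values (adjusted p = 0.0578) and in a fit of only the groups compared (adjusted p = 0.0900). The insulin gene *Ins2* was listed at 0 in all 34 libraries.

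Of 14 listed genes in or beside the *Kcnq1* domain, 7 were tested. At day 25, 2 were higher and 1 lower in KO, against 39.4% and 25.9% of all tested genes (median 0.18, against 0.13). *Tssc4* was higher by 0.49 (limma adjusted p = 0.00615), *Nap1l4*, a histone chaperone gene, by 0.18 (adjusted p = 0.0433), and *Dhcr7*, of the last step of cholesterol synthesis, had -0.52 (adjusted p = 0.0244). The *Nap1l4* call was lost after median centring (adjusted p = 0.0597), and those of *Tssc4* and *Dhcr7* when replicate 1 of WT was left out (adjusted p = 0.1002 and 0.0803). *Tnfrsf22*, a decoy receptor for the death ligand TRAIL, was higher in KO by 2.10 at day 9, 1.45 at day 11 and 1.97 at day 17 and had 0.23 at day 25 (adjusted p = 0.0771). Its start lies 1071.5 kb from that of *H19*, beyond *Phlda2*, whose difference was -1.73 at day 17. *Kcnq1* itself was not tested, at 0.0176 to 0.202 RPKM in WT and 0.0218 to 0.177 RPKM in KO.

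**Figure D5:**
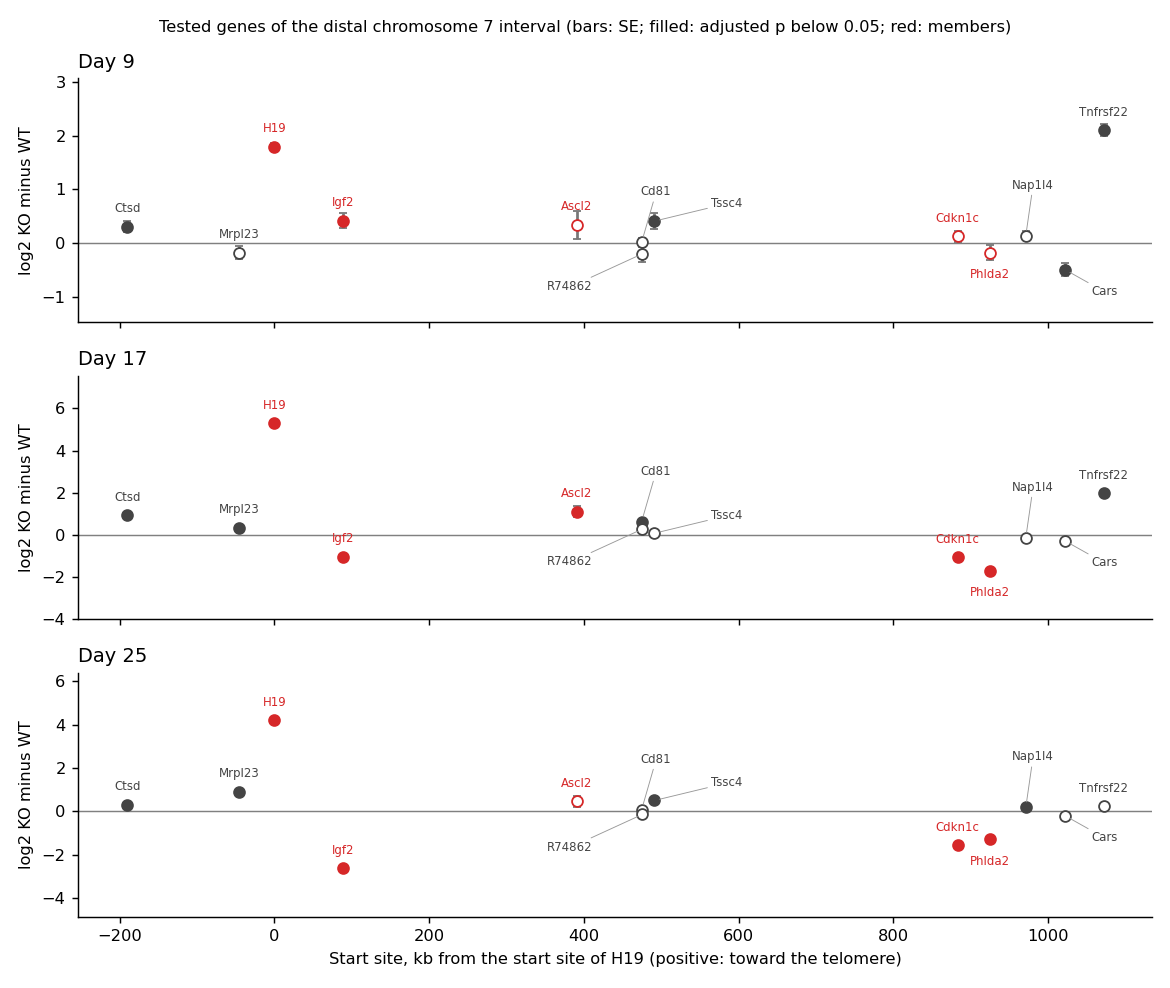
The log2 difference of KO minus WT with its SE for the 13 tested genes of the interval at days 9, 17 and 25, against the distance of each start site from that of *H19* in kb, members in red and filled where called. *H19* is higher and *Igf2*, *Cdkn1c* and *Phlda2* lower at days 17 and 25, and *Tnfrsf22* is at 2.10, 1.97 and 0.23.

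Of 15 listed genes of the IGF pathway, to which IGF2 belongs, 11 were tested. At day 17, 5 were higher and 1 lower in KO, against 28.9% and 11.4% of all tested genes. At day 25, 2 were higher and 5 lower (median -0.11, against 0.13 over all tested genes), against 39.4% and 25.9% of all tested genes, and 1 was higher with a pseudocount of 1, with no filter, without the day 1 term, in a fit of only the groups compared and with voom on recovered reads. At day 25 *Igf2bp1*, an RNA-binding protein of *Igf2* and other mRNAs, had -1.45, the receptor gene *Igf1r* -1.22 and the receptor substrate gene *Irs2* -1.12, and *Igfbp2*, a binding protein that sequesters IGFs, was higher by 1.12 (limma adjusted p = 1.37e-06, 0.000922, 5.61e-05 and 1.66e-07). *Igfbp2* went the other way at day 17, with -0.38 (adjusted p = 0.0207, and 0.337 without the day 1 term).

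All 10 listed keepers of imprints and insulator factors were tested. At day 25, 4 were higher and 3 lower (median 0.10), against 39.4% and 25.9% of all tested genes. *Dppa3*, which protects imprints in the early embryo, was higher by 1.16, and *Trim28* and *Setdb1*, the corepressor and histone methyltransferase that act with ZFP57, had -0.67 and -0.54 (limma adjusted p = 1.29e-07, 0.0001008 and 9.88e-06). *Ctcfl*, a germ-line relative of CTCF, was higher by 0.46 (adjusted p = 0.0336, and 0.1269 with a pseudocount of 0.01). *Zfp57* and *Ctcf* themselves went opposite ways from each other. At day 25 *Zfp57* was 38.27 ± 0.217 RPKM in KO against 29.57 ± 0.144 RPKM in WT (mean and SD). *Ctcf* was 15.71 ± 0.277 RPKM in KO against 19.93 ± 0.223 RPKM in WT. Of the 7 Polycomb and G9a genes, which act with *Kcnq1ot1*, 6 were tested. At day 25, 3 were higher and 3 lower, against 39.4% and 25.9% of all tested genes. The Polycomb genes *Rnf2* and *Suz12* were higher by 0.97 and 0.58, and the G9a complex genes *Ehmt1* and *Ehmt2* had -0.77 and -0.63 (adjusted p = 3.43e-09, 6.14e-07, 2.40e-06 and 3.75e-07). The Polycomb genes did not all go one way. At day 25 *Ezh2* was 8.37 ± 0.755 RPKM in KO against 12.5 ± 0.29 RPKM in WT, and *Eed* was 49.3 ± 0.859 against 42.7 ± 1.46 RPKM.

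Of 8 relatives of the members in other parts of the genome, 7 had a row and 5 were tested. At day 17, 3 were higher and none lower, against 28.9% and 11.4% of all tested genes (centred, 17.5% and 25.6%). *Cdkn1a*, which encodes the inhibitor p21, was higher by 1.82, *Phlda1* by 1.34 and *Phlda3* by 1.33 (limma adjusted p = 5.31e-09, 0.0001037 and 6.98e-09). The *Phlda1* call of day 17 was lost without the term for the third pair of day 1 (adjusted p = 0.173). At day 25 *Phlda1* was lower, with -1.25 (adjusted p = 0.0001019), and *Cdkn1a*, *Phlda3* and *Ascl4* had 0.05, 0.12 and -0.22, none of them called. Without the term for the third pair of day 1, the day 25 calls of *Ctsd*, *Dhcr7*, *Tssc4*, *Nap1l4*, *Setdb1*, *Ctcfl*, *Phlda1*, *Rnf2*, *Ehmt1*, *Ehmt2* and *Suz12* were lost (adjusted p = 0.0579 for *Ehmt1* to 0.812 for *Nap1l4*), with the same differences.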

How the data were processed

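Total RNA-seq libraries were prepared after depletion of ribosomal RNA. Per the study's methods and the labels, the authors trimmed the reads (Trim Galore 0.3.5), aligned them with TopHat2 2.0.11 to mouse build NCBIM37, discarded reads with mapping quality below 20 and used SeqMonk for quantification. Values as deposited are RPKM on a linear scale, in 35 columns of 1 library each and no further scaling by the authors. The methods name log2 RPM, and the authors tested counts, which were not used here. Tests here used limma 3.58.1 (R 4.3.3) on log2(RPKM + 0.1), with group means of genotype and day over 34 libraries, 1 term for the third pair of day 1, a trend in the prior variance and two-sided tests adjusted by Benjamini-Hochberg over 11615 genes with RPKM above 1 in at least 2 libraries. The third day 1 libraries were kept as replicates by their titles, although the series describes 2 replicates.

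Reads and depth were recovered from RPKM with exon lengths of the GENCODE annotation of the same build, matched for 99.78% of rows. Between 99.63% and 99.807% of values below 20 reads were whole within 0.1. Reads carry no molecular identifiers, so precision from read numbers covers counting error only. Alternatives were pseudocounts of 0.01 and 1, no filter, median centring, other fits of day 1, only the groups compared, a replicate block, voom on recovered reads, each library left out and, added after the data were seen, day 6 left out. The limma script was tested on simulated data. The boundary of 35% between the sets of libraries was set from the values. The members, lists and markers were chosen with earlier results of these data known. From each list at most 4 genes were named, those called at day 25 and then over the mean of days 3, 9, 11, 17 and 25, by absolute difference, and for each member the 2 genes with the highest r. Values of named list genes at day 17 and of *Tnfrsf22* at days 9 and 11, of single markers, counts over lists and neighbours at 0 were added after values were seen. So were the day 25 levels of *Ezh2*, *Eed*, *Zfp57* and *Ctcf*, which the rule of 4 genes per list had left out. Figures were drawn with matplotlib 3.10.9.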

Additional observations from a re-analysis of the deposited data

Results flagged for a closer look

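The KO effect (KO minus WT, log2) of 4 members differed between days in a test of the difference itself, in the same limma fit. For *H19* the effect of day 25 exceeded that of day 9 by 2.40 and was below that of day 17, by -1.12. For *Igf2* the effect of day 25 was below that of day 9, by -3.04, and below that of day 17, by -1.57, with a change of sign between days 9 and 25. For *Cdkn1c* the differences were -1.70 from day 9 and -0.50 from day 17. For *Phlda2* the difference from day 9 was -1.12. Day 9 and day 25 fall in sets of libraries with a different share of reads in exons, and each effect is a contrast within 1 day. Between these 2 days, a change of the effect with time and one with the set cannot be told apart. Groups of 2 or 3 libraries were too small to look for a single library far from the others.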

How the results depend on the processing

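The calls of *H19* from day 3 on and those of *Igf2*, *Cdkn1c* and *Phlda2* at days 17 and 25 kept their direction and their side of the threshold under every alternative and with each library left out. Counts of called members moved at day 9 with a pseudocount of 0.01 (to 1). Without the term for the third pair of day 1, they moved at day 3 (to 2), day 6 (to 1), day 9 (to 1), day 11 (to 2), over the mean of days (to 4) and for day 25 minus day 17 (to 2), and called genes over the table numbered 1 at day 1, 77 at day 3, 330 at day 6, 382 at day 9, 653 at day 11, 1204 at day 17, 2430 at day 25, 2196 over the mean, 842 for day 25 minus day 9 and 1322 for day 25 minus day 17. In the fit with the term they numbered 17, 1301, 3143, 3160, 4066, 4671, 7591, 6719, 5600 and 6320. The 17 genes of day 1 became 11 with a pseudocount of 1, 4 with no filter, 33 with the third pair left out, 0 in a fit of only the groups compared and 2 with the replicate block. Fits of only the groups compared called 2153 genes at day 3, 311 at day 11 and 2872 at day 17, with 3 members at day 6, 2 at day 11 and 4 for day 25 minus day 17. A pseudocount of 1 also gave 4 members for day 25 minus day 17, and median centring 4 at day 11. The mean over only days 3 and 9 called 3561 genes and reversed *Igf2* (0.59), *Cdkn1c* (0.45) and *Phlda2* (0.27). Median centring reversed the uncalled differences of *Cdkn1c* at day 11 (-0.083) and of *Tssc4* (-0.12), *Ctcfl* (-0.018) and *Rnf2* (-0.12) at day 17. The cause of these changes was not tested.

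With 1 library left out in turn, in fits that assume a lone library to vary like the other groups, called genes ranged from 2 to 46 at day 1, 566 to 1815 at day 3, 1856 to 3920 at day 6, 1721 to 3920 at day 9 and 2602 to 5325 at day 11, and called members from 2 to 3 at day 6, 1 to 2 at day 9, 3 to 4 at day 11, 4 to 5 at days 17 and 25 and 3 to 4 for day 25 minus day 17. Differences that changed sign were uncalled ones of *Cdkn1c* at day 0 (-0.062 to 0.163) and day 11 (-0.082 to 0.142), *Phlda2* at day 0 (-0.078 to 0.129), *Tssc4* at day 17 (-0.163 to 0.284), *Igf2bp1* at day 17 (-0.241 to 0.185) and *Ascl2* between days 25 and 9 (-0.298 to 0.528). The day 17 calls of *Irs2*, *Igfbp2*, *Setdb1*, *Ehmt2* and *Mrpl23* were each lost in 2 or more of these 34 fits. Replicate numbers did not pair the libraries, since the deviations of libraries with the same number had correlations of -0.159 to 0.26 over the 8 days. With the replicate block, 4 members were called at day 25 and 7433 genes over the table, and the day 25 calls of *Dhcr7*, *Nap1l4* and *Ctcfl* were lost (adjusted p = 0.0573, 0.0861 and 0.0592). Voom on recovered reads called 4 members and 7718 genes at day 25, and leaving out the day 6 libraries, chosen after the data were seen, 4 members and 7503 genes. *Igf2* in KO at day 25 and *Ascl2* throughout rest on few reads, which limits the precision of their differences.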

Other observations

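In the 1 library of *Dicer* KO cells, which entered no comparison, the members were at 3.96 RPKM for *H19*, 1.02 RPKM for *Igf2*, 1.45 RPKM for *Cdkn1c*, 0.461 RPKM for *Phlda2* and 0.168 RPKM for *Ascl2*, with *Dnmt1* at 34.8 RPKM. The *Phlda2* and *Ascl2* values rest on 9 and 7 reads. *Phlda2* was 3.63 RPKM or more in every WT and *Dnmt1* KO library, whereas *H19* and *Igf2* lay inside the range of the WT libraries of days 11, 17 and 25. The ratio of *H19* to *Igf2* was 3.89 in this library. The library stood apart in markers, with a fibroblast sum of 337 RPKM against at most 66.3 RPKM in any WT or *Dnmt1* KO library and a trophoblast sum of 126.6 RPKM, and the part of other cell types in these levels was not tested.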
